A study of Ovis aries with 9 samples.

Results

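Hepatocytes from sheep at lactation day 15 were set against hepatocytes from virgin sheep. The cells were chosen by the stage written in each cell's name in the authors' count table, which gave 553 cells at lactation day 15 and 531 virgin cells, 1084 of the 3404 cells in the series. The species is Ovis aries, all samples are labelled female and liver, and the labels name no genetic change and no added agent in any of them. The series also holds 6 ranges of gestation (days 40 to 50, 50 to 70, 70 to 80, 90 to 100, 100 to 120 and 140 to 150) and lactation day 7, and these are used here to ask which genes that differed in pregnancy stood at the virgin level again 15 days into lactation. Livers were digested, single cells were picked by hand, and each cell received its own library by Smart-seq3xpress, a plate-based method that reads whole transcripts. Each stage is 1 library pool, the labels do not say how many ewes went into it, and their ages are not given. Stage therefore cannot be told apart from the animals, the collection and the plates of that pool.

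The liver of a lactating ruminant supplies the udder with glucose made largely from propionate and amino acids, while fat drawn from adipose tissue reaches the liver and is oxidized, stored in droplets or exported. Hepatocytes also make most plasma proteins, dispose of ammonia as urea or glutamine, and clear drugs, steroids and heme products. These tasks are divided along the lobule, with urea and glucose synthesis stronger near the portal vein and glutamine synthesis and much drug metabolism stronger near the central vein.

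The day 15 library held 272944124 reads on named genes and the virgin library 261815503. The median cell had 388578 reads and 6255 genes at day 15, against 456941 reads and 6669 genes in virgin. When every cell was thinned to 155164 reads, the medians were 5965 genes at day 15 and 5916 in virgin, over 495 and 481 cells deep enough to be thinned. Levels are in CPM, the reads of a gene summed over all cells of a stage and divided by the library total after TMM adjustment. Differences are in log2(CPM + 1), day 15 minus virgin, a scale that understates the change of low genes. "Higher" and "lower" without further words mean at least 2-fold on that scale and "near" means within 1.5-fold. With 1 library a side there is no replicate check, no test was run and no p-value is given. Intervals are 95% exact intervals, and cover counting error of reads or of cells only.

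Albumin (ALB), the main plasma protein, stood at 32160 CPM at day 15, against 81040 CPM in virgin (log2 difference -1.33), so that it took 3.54% of reads at day 15 and 8.54% in virgin. The 10 most abundant genes of each library together took 16.9% of reads at day 15 and 25.3% in virgin. Every hepatocyte marker listed that was in the table was measured above the expression filter, 12 of 12, and ALB was read in every thinned cell of both libraries. The markers were not level: 0 were at least 2-fold higher and 3 at least 2-fold lower at day 15 (TF, ALB and FGB). Of the 12, 7 were within 1.5-fold and 9 lay below virgin, with a median of -0.51. The median difference over all 8283 genes tested, those averaging at least 5 CPM over the 9 libraries, was 0.09, and it was 0.15 with library size as the only scaling. A difference of that size is shared by the genes at large and is no property of any list. As this median is positive, more of the tested genes lay above virgin than below it. Counts of list members above or below virgin are to be read beside that, and the exact share over all genes is not given here.

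At day 15, 294 of 8283 genes were higher (3.55%), 285 were lower (3.44%) and 6674 were near the virgin level (80.6%). These shares are the background for the higher, lower and near counts of every list below. By the gene lists described further on, oxidant defence and heme handling, drug metabolism and lipid droplets held higher genes with 1 lower gene or none, and plasma carriers, interferon response and amino acid breakdown held lower genes and 0 higher ones. Symbols beginning with LOC, which have no established name, made up 33.7% of the higher and 28.1% of the lower genes, against 11.4% of the genes tested. Long noncoding RNAs made up 10.5% of the higher, 6.32% of the lower and 3.39% of all genes tested. Detection per cell moved with the sums in many of these genes. In thinned cells, 154 of the 294 higher genes were read in at least 20 percentage points more of the cells (52.4%, against 2.46% of all genes tested). Among the 285 lower genes, 131 were read in at least 20 points fewer (46%, against 2.17%). Detection and sums come from the same reads, so these shares describe the called genes and are no independent check of them. A single cell held more than 20% of the reads in the higher library for 4 of the higher and 13 of the lower genes.

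**Figure D1:**
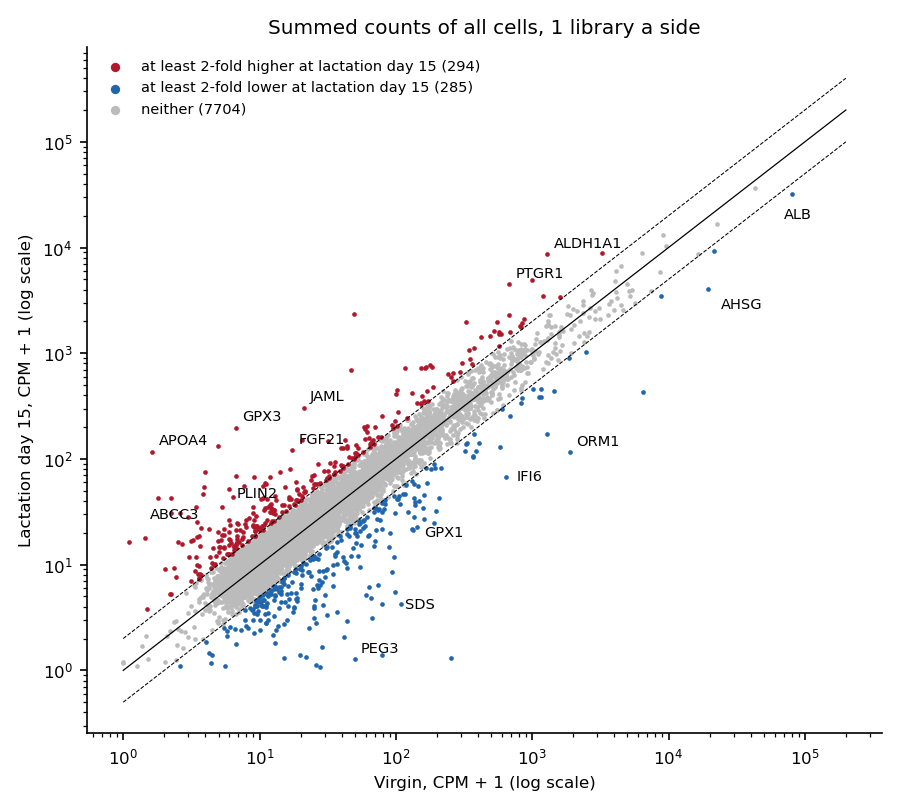
Summed level of each of the 8283 tested genes, as CPM + 1 on log scales, at lactation day 15 (vertical axis) and in virgin (horizontal axis). The solid line marks equal levels and the dashed lines 2-fold differences. APOA4, GPX3 and JAML lie far above the line and SDS, ORM1 and PEG3 far below it, while most genes lie between the dashed lines.

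APOA4, an apolipoprotein of chylomicrons and triglyceride-rich lipoproteins, had the largest difference among the higher genes named. It stood at 116.6 CPM at day 15 (interval 115.4 to 117.8), against 0.631 CPM in virgin (0.540 to 0.732), a log2 difference of 6.17. It was read in 72.3% of thinned day 15 cells (68.2 to 76.2) and in 3.53% of thinned virgin cells (2.07 to 5.60). The first 5 gestation libraries lay between 0.321 and 1.98 CPM, the library of days 140 to 150 at 86.1 CPM and lactation day 7 at 5.64 CPM. High levels were thus seen in both the term and the day 15 library, with a low one between them. The other apolipoproteins and secretion genes did not share this size of difference: of 12 tested, 1 was higher, 0 were lower and 9 were near, with a median of -0.00. APOA5 stood at 586 CPM at day 15, against 361 CPM in virgin, and APOE at 1575 CPM at day 15, against 2629 CPM in virgin.

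Genes of lipid droplets and triglyceride handling included 4 higher and 0 lower of 19 tested, with 14 near and a median of 0.47. PLIN2, the coat protein of lipid droplets, stood at 50.5 CPM at day 15, against 4.95 CPM in virgin (3.12). It was read in 75.8% of thinned day 15 cells and 17.0% of thinned virgin cells, and the libraries of gestation days 100 to 120 and 140 to 150 held 57.8 and 103 CPM. G0S2, an inhibitor of the lipase ATGL, stood at 54.6 CPM at day 15, against 6.69 CPM in virgin (2.85). HILPDA, another ATGL inhibitor, stood at 10.8 CPM at day 15, against 2.03 CPM in virgin, and ABHD5, the ATGL co-activator, at 42.8 CPM at day 15, against 15.5 CPM in virgin. Genes encoding both inhibitors and the co-activator of this lipase were therefore higher, while PNPLA2, which encodes ATGL itself, stood at 14.5 CPM at day 15, against 13.3 CPM in virgin. LIPG, a phospholipase acting on lipoproteins, stood at 66.1 CPM at day 15, against 10.96 CPM in virgin, and was below virgin in 5 of the 6 gestation libraries. MFSD2A, a transporter of lysophospholipids, stood at 53.7 CPM at day 15, against 2.91 CPM in virgin (3.81).

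Fatty acid oxidation had 2 higher, 0 lower and 20 near of 25 genes tested, with a median of 0.30. Its share near virgin was about the 80.6% over all genes tested. ACAA2, the mitochondrial thiolase, stood at 1510 CPM at day 15, against 586 CPM in virgin, and SLC22A5, the carnitine transporter, at 13.5 CPM at day 15, against 3.57 CPM in virgin. PPARA, the nuclear receptor that drives this pathway, was near, at 77.9 CPM at day 15, against 78.1 CPM in virgin. PDK4, a kinase that restrains pyruvate oxidation, was lower, at 31.0 CPM at day 15, against 194 CPM in virgin. PDK4 was as low, at 29.0 CPM, at day 7 and ran from 29.5 to 444 CPM in gestation, with the highest value at days 140 to 150.

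FGF21, a fasting and stress hormone of the liver, stood at 120 CPM at day 15 (119 to 122), against 16.3 CPM in virgin (15.8 to 16.8), a log2 difference of 2.81. It was read in 94.3% of thinned day 15 cells (91.9 to 96.2) and 28.7% of thinned virgin cells (24.7 to 33.0), and the median cell held 114 CPM at day 15 and 0 in virgin. Gestation ran from 0.433 to 47.5 CPM and day 7 held 67.1 CPM, so day 15 was the highest of the 9 libraries. Among hepatokines, proteins that hepatocytes release as signals, 3 of 16 were higher, 4 lower and 5 near, with a median of -0.25. INHBE, which encodes the activin E subunit, stood at 198 CPM at day 15, against 68.9 CPM in virgin, and ANGPTL8, a regulator of lipoprotein lipase, at 139 CPM at day 15, against 65.0 CPM in virgin. FETUB and AHSG, both fetuins, were on the lower side, AHSG at 4085 CPM at day 15, against 19510 CPM in virgin (-2.26).

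Genes of oxidant defence regulated by NRF2 and of heme handling formed the list with the highest median, 1.14, among lists with at least 5 genes tested. Of 25 tested, 13 were higher, 1 was lower and 8 were near. ABCC3, an exporter of glucuronides into blood, stood at 41.9 CPM at day 15 (41.2 to 42.7), against 0.804 CPM in virgin (0.702 to 0.918), and was read in 75.6% of thinned day 15 cells and 6.65% of thinned virgin cells. Its gestation libraries held 1.29 to 7.37 CPM and day 7 held 7.78 CPM, so only the day 15 library passed 10 CPM. ABCC3 passed the 5 CPM filter on the mean only through that library. HMOX1, which opens the heme ring, stood at 42.4 CPM at day 15, against 5.37 CPM in virgin, with 38.7 CPM at day 7. SRXN1, which repairs peroxiredoxins, stood at 74.1 CPM at day 15, against 13.2 CPM in virgin, with the 7 other libraries between 13.5 and 22.6 CPM. ALAS1, the first enzyme of heme synthesis, stood at 721 CPM at day 15, against 153 CPM in virgin. The remaining higher members were GSR, FTL, OSGIN1, UGDH, NQO1, TXN, PRDX1, GPX4 and BLVRB, with differences of 1.14 to 1.57.

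The glutathione peroxidases went different ways. GPX1, the cytosolic enzyme, was the 1 lower member of the list above, at 20.1 CPM at day 15, against 133 CPM in virgin (-2.67), and the other 7 libraries held between 80.4 and 149 CPM. GPX4, which acts on lipid peroxides in membranes, stood at 227 CPM at day 15, against 97.7 CPM in virgin. GPX3, the secreted enzyme, stood at 196.6 CPM at day 15 (195 to 198), against 5.72 CPM in virgin (5.44 to 6.01), a log2 difference of 4.88. It was read in 92.9% of thinned day 15 cells and 19.8% of thinned virgin cells, and the quartiles over cells were 50.5, 149 and 303 CPM at day 15 and 0, 0 and 1.51 CPM in virgin. Its gestation values were 0.754, 40.1, 6.57, 173, 45.8 and 250 CPM in order of days, and day 7 held 156 CPM.

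Drug-metabolizing enzymes were mostly above virgin, with 16 of 18 tested above it, 5 higher, 0 lower and 8 near. Their median was 0.77, against 0.09 over all genes tested. ALDH1A1, which oxidizes retinal and other aldehydes, stood at 8650 CPM at day 15, against 1290 CPM in virgin (2.74). Its quartiles over cells were 7032 to 10607 CPM at day 15 and 807 to 1568 CPM in virgin and did not overlap. PTGR1, a reductase of prostaglandins and reactive aldehydes outside that list, stood at 4481 CPM at day 15, against 677 CPM in virgin, with the 7 other libraries between 990 and 1599 CPM. FMO5, a flavin monooxygenase, and EPHX1, the microsomal epoxide hydrolase, were higher too, FMO5 at 1467 CPM at day 15, against 489.5 CPM in virgin. CYP2A6 stood at 717 CPM at day 15, against 161 CPM in virgin, and as a member of a family of close copies it may share reads with others. Of 10 steroid-converting enzymes 3 were higher and 1 lower. HSD17B2, which inactivates estradiol, stood at 40.9 CPM at day 15, against 10.4 CPM in virgin, and SRD5A2, a 5-alpha reductase, at 7.92 CPM at day 15, against 29.9 CPM in virgin.

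**Figure D2:**
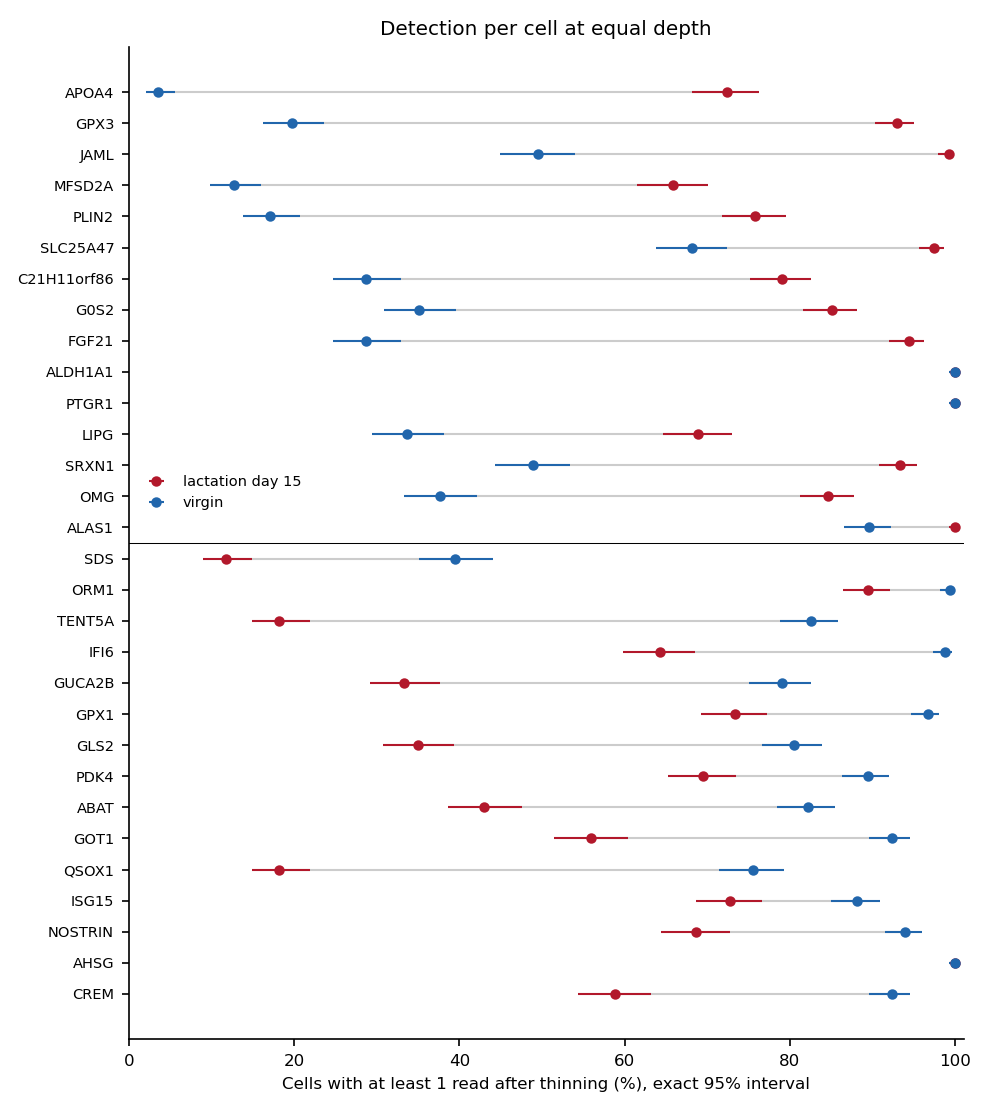
Share of cells with at least 1 read of a gene after each cell was thinned to 155164 reads, for the 15 higher (upper block) and 15 lower (lower block) genes named by size of difference, at lactation day 15 (red) and in virgin (blue), with exact 95% intervals that cover counting error only. APOA4 was read in 72.3% of day 15 cells and 3.53% of virgin cells, while ALDH1A1, PTGR1 and AHSG were read in all cells of both and differed in amount.

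Plasma carrier proteins stood below virgin in 14 of 15 genes tested, with 0 higher, 5 lower, 8 near and a median of -0.58. The lower genes were ORM1, AHSG, FETUB, TF and ALB. TF, the iron carrier of plasma, stood at 3478 CPM at day 15, against 8866 CPM in virgin (-1.35), and its gestation libraries held 6367 to 10030 CPM. TTR, the thyroxine and retinol transport protein, stood at 16630 CPM at day 15, against 22500 CPM in virgin, near by the 1.5-fold band. For ALB the gestation libraries held 90940 to 113300 CPM and day 7 held 47800 CPM, so both lactation libraries lay below the other 7.

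Acute phase genes, which the liver turns on in inflammation, were lower in 3, near in 3 and higher in 0 of 14 tested, with a median of -0.88. ORM1, encoding an acid glycoprotein, stood at 115 CPM at day 15 (114 to 117), against 1894 CPM in virgin (1889 to 1899), a log2 difference of -4.03. It varied widely over the other libraries, from 50.0 CPM at gestation days 70 to 80 to 9731 CPM at lactation day 7, and it may share reads with a close copy. FGB, the fibrinogen beta chain, stood at 9373 CPM at day 15, against 21510 CPM in virgin, and HAMP, the iron hormone hepcidin, at 461 CPM at day 15, against 1006 CPM in virgin. Complement and coagulation genes included 0 higher, 0 lower and 17 near of 26, with 21 below virgin and a median of -0.34.

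Interferon-response genes were lower in 5, near in 14 and higher in 0 of 20 tested, and 18 of them lay below virgin. IFI6 stood at 66.4 CPM at day 15, against 647 CPM in virgin (-3.26), and was read in 64.2% of thinned day 15 cells and 98.8% of thinned virgin cells. ISG15, a ubiquitin-like protein induced by interferon, stood at 41.5 CPM at day 15, against 206 CPM in virgin, and its gestation libraries, from 13.1 to 131 CPM, were all below virgin too. HERC6, MX1 and IFIT1 were the other lower members. The virgin library had the highest level of ISG15 of all 9. Folding genes of the endoplasmic reticulum were lower in 3 of 24 (ERN1, CRELD2 and MANF), higher in 1 and near in 15, and 20 of the 24 lay below virgin.

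Enzymes of amino acid breakdown were lower in 6, near in 27 and higher in 0 of 42 tested, with a median of -0.18. SDS, which turns serine into pyruvate, stood at 4.52 CPM at day 15 (4.28 to 4.76), against 97.5 CPM in virgin (96.3 to 98.7), a log2 difference of -4.16. It was read in 11.7% of thinned day 15 cells (9.02 to 14.9) and 39.5% of thinned virgin cells (35.1 to 44.0), and in gestation it ran from 9.003 to 109.6 CPM. GOT1, the cytosolic aspartate aminotransferase, stood at 26.1 CPM at day 15, against 159 CPM in virgin, and GLS2, the liver glutaminase, at 21.8 CPM at day 15, against 142 CPM in virgin. Both were also low at day 7, at 35.6 CPM for GOT1 and 26.8 CPM for GLS2, while their gestation libraries held at least 99.6 CPM for GOT1 and at least 74.2 CPM for GLS2. GLS2 is counted with the ammonia genes, and the other lower genes of the breakdown list were BHMT, HAL, GPT2 and SDSL. ABAT, which breaks down GABA and beta-alanine, stood at 20.7 CPM at day 15, against 130.1 CPM in virgin.

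Of 12 urea cycle and ammonia genes, 1 was higher, 3 were lower and 7 were near. The lower ones were GLS2, ASL and SLC25A15, and CPS1, the first enzyme of the cycle, stood at 1015 CPM at day 15, against 1922 CPM in virgin (-0.92). GLUL, glutamine synthetase, was the higher one, at 252 CPM at day 15, against 78.8 CPM in virgin (1.67). GLUL is confined to few cells in liver, and 1 cell held 14.5% of its day 15 reads and 1 cell 17.6% of its virgin reads. Its thinned detection was 53.9% at day 15 and 37.0% in virgin, while the median cell held 5.68 CPM at day 15 and 0.834 CPM in virgin.

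Among 19 genes listed as periportal, 0 were higher, 7 lower and 10 near, with a median of -0.58, and among 12 listed as pericentral 3 were higher, 1 lower and 5 near, with a median of 0.33. The periportal lower genes were SDS, GLS2, G6PC1, SLC7A2, ASL, ALB and HAL, several of which are in the lists above as well. RHBG, an ammonium transporter, stood at 127 CPM at day 15, against 39.7 CPM in virgin, in 89.9% of thinned day 15 cells and 63.8% of thinned virgin cells. OAT, the aminotransferase of ornithine, was the lower pericentral gene, at 0.786 CPM at day 15, against 5.76 CPM in virgin, with 41.9% of the day 15 reads in 1 cell. Cells were picked by hand, and whether the 2 pools drew equally on both zones was not tested.

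Of 18 genes of glucose output and propionate use tested, 10 were near virgin, a smaller share than the 80.6% over all genes, 1 was higher and 2 were lower, with a median of 0.27. PCK1, the gatekeeping enzyme of gluconeogenesis, stood at 2859 CPM at day 15, against 2354 CPM in virgin, and PC, pyruvate carboxylase, at 95.8 CPM at day 15, against 47.9 CPM in virgin, just inside the 2-fold line. G6PC1, the last step of glucose release, was lower at 380 CPM at day 15, against 1127 CPM in virgin (-1.56), and LDHB was higher at 542 CPM at day 15, against 261.5 CPM in virgin. In the growth hormone axis GHR, the receptor, stood at 730 CPM at day 15, against 432 CPM in virgin, and IGF1, its main secreted product, at 384 CPM at day 15, against 359 CPM in virgin. SOCS2, a feedback inhibitor of that receptor, stood at 135.5 CPM at day 15, against 50.4 CPM in virgin (1.41). IRS2, an adaptor of the insulin receptor, stood at 8.86 CPM at day 15, against 33.6 CPM in virgin.

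The housekeeping lists held no gene past 2-fold, but the ribosomal list leaves out RPL39. That ribosomal protein gene was higher, at 1637 CPM at day 15, against 522 CPM in virgin. Of 51 ribosomal protein genes 49 were near, of 28 respiratory chain genes 26, of 20 aminoacyl-tRNA synthetases 19 and of 25 proteasome genes 21, with 0 higher and 0 lower in each of these lists, against 80.6% near over all genes tested. Their medians were 0.05 for ribosomal proteins, 0.19 for the respiratory chain, 0.26 for the synthetases and 0.41 for the proteasome, where 25 of 25 genes lay above virgin. Cholesterol genes were 1 higher, 0 lower and 12 near of 21, with 18 above virgin and a median of 0.55. SQLE, squalene epoxidase, was the higher one, at 329 CPM at day 15, against 152 CPM in virgin.

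**Figure D3:**
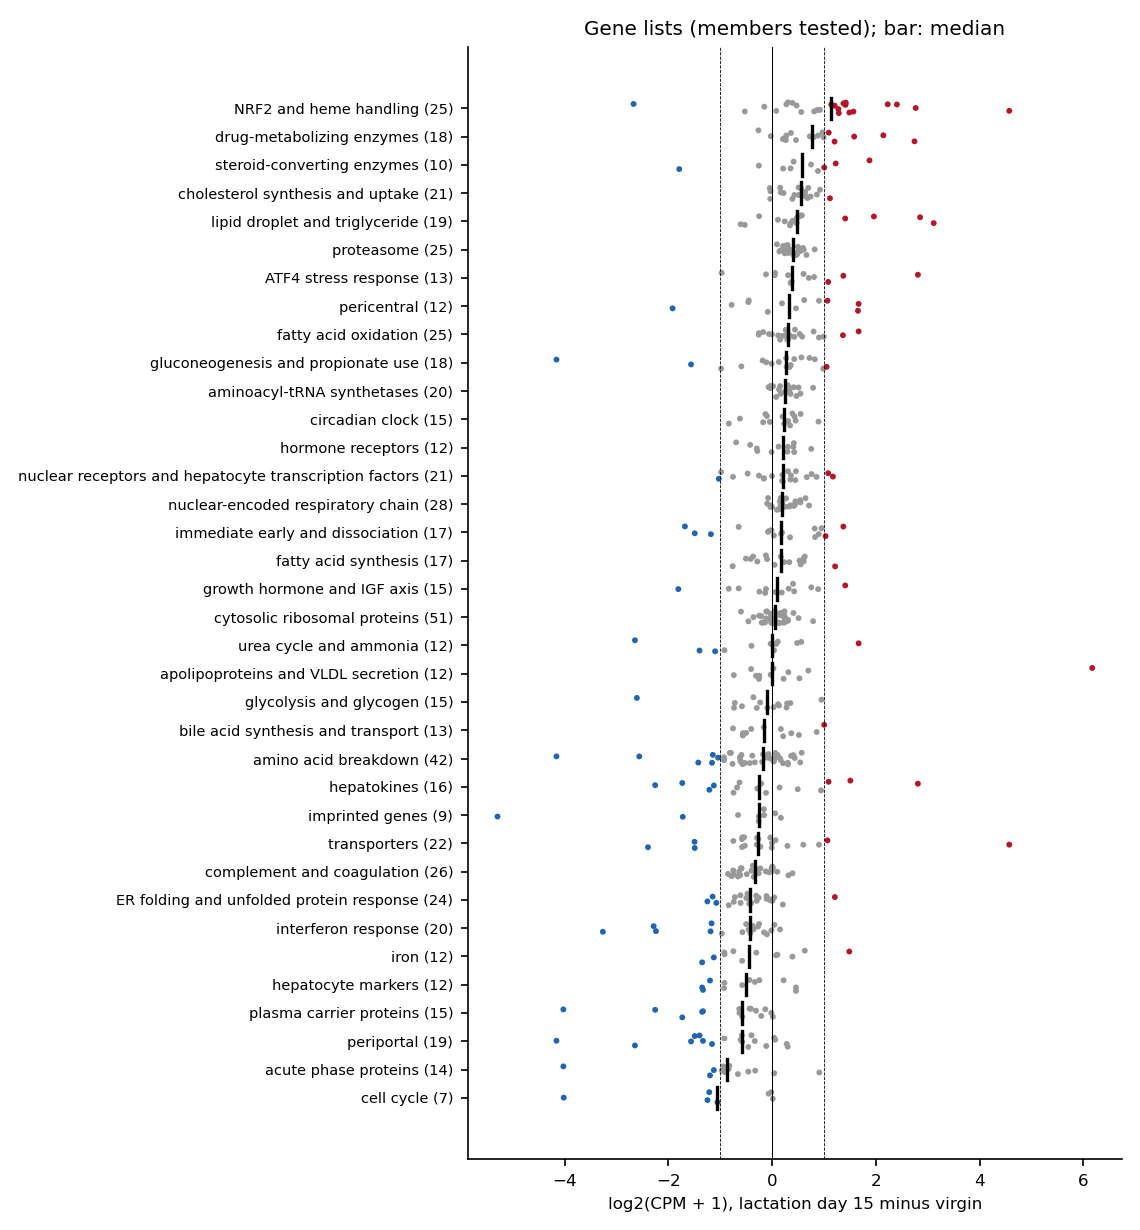
Difference in log2(CPM + 1), lactation day 15 minus virgin, of each tested member (points) of each gene list with at least 5 tested members, with the list median as a black bar, the number tested in parentheses and dashed lines at 2-fold. Red points are at least 2-fold higher and blue points at least 2-fold lower at day 15. NRF2 and heme handling has the highest median, 1.14, and cell cycle the lowest, -1.06. Of the cell cycle genes, MCM3 passed the 5 CPM filter partly through virgin.

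Of the 15 higher and 15 lower genes named by size of difference, those in no list above were less easily grouped. C21H11orf86 stood at 66.0 CPM at day 15, against 8.09 CPM in virgin, and OMG, a glycoprotein known from myelin, at 54.8 CPM at day 15, against 9.56 CPM in virgin. TENT5A, a poly(A) polymerase, stood at 5.47 CPM at day 15, against 72.5 CPM in virgin, and was read in 18.2% of thinned day 15 cells and 82.5% of thinned virgin cells. QSOX1, which forms disulfide bonds in secreted proteins, stood at 8.60 CPM at day 15, against 53.6 CPM in virgin, and NOSTRIN, which traffics nitric oxide synthase, at 27.2 CPM at day 15, against 135.5 CPM in virgin. C21H11orf86 was highest of the 9 libraries at day 15 and TENT5A and QSOX1 lowest, while OMG held 68.8 CPM at gestation days 50 to 70 and NOSTRIN 17.5 CPM at days 140 to 150, both past the day 15 value.

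To say which genes were back at the virgin level, a pregnancy change was taken as all 6 gestation libraries on the same side of virgin with a median at least 2-fold away. By this rule 124 of 8283 genes (1.5%) were higher in gestation and 104 (1.26%) lower. At day 15, 31 of the 124 (25%) were back within 1.5-fold of virgin, 21 were between 1.5 and 2-fold on the same side (16.9%), 58 (46.8%) were still at least 2-fold higher and 14 lay at least 1.5-fold below virgin (11.3%). Of the 104 lower genes 32 (30.8%) were back, 14 were partly back (13.5%), 51 (49%) were still at least 2-fold lower and 7 lay at least 1.5-fold above virgin (6.73%). Of the 8055 genes without such a change, 6611 (82.1%) were within 1.5-fold at day 15. Gestation and day 15 are both measured from the same virgin library, so a virgin level that is out of line by itself puts a gene among those still changed.

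The lactation day 7 library gave like counts. At day 7, 29 of the 124 (23.4%) and 27 of the 104 (26%) were within 1.5-fold, while over all genes tested 6288 were (75.9%). The genes were not all the same: of the 31 back at day 15 after higher levels in gestation 10 were also within 1.5-fold at day 7 (32.3%), and of the 32 back after lower levels 13 were (40.6%). Taking days 140 to 150 alone as the pregnancy value, 281 genes were higher at term (3.39%), of which 102 were back at day 15 (36.3%), and 251 were lower (3.03%), of which 99 were back (39.4%).

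Fatty acid synthesis was the list with the most members back. Of its 17 tested genes 5 met the rule for lower in gestation, and 4 of those, FASN, ACLY, ACACA and FADS2, were back at day 15. At gestation days 40 to 50 FASN, ACACA and FADS2 were still near virgin, and their lower values came later. FASN, fatty acid synthase, stood at 70.3 CPM at day 15 (69.3 to 71.2), against 90.9 CPM in virgin (89.8 to 92.0). Its gestation libraries held 75.8, 68.8, 16.2, 22.2, 8.47 and 4.28 CPM in order of days, and day 7 held 12.5 CPM, so the return was seen at day 15 and not at day 7. ACLY, which makes cytosolic acetyl-CoA, stood at 69.9 CPM at day 15, against 55.4 CPM in virgin, with 12.4 CPM at days 140 to 150 and 21.6 CPM at day 7. ACACA, acetyl-CoA carboxylase 1, stood at 56.2 CPM at day 15, against 38.6 CPM in virgin, with 5.20 CPM at days 140 to 150 and 29.7 CPM at day 7. Its day 15 difference of 0.528 lay near the edge of the 1.5-fold band and passed it, at 0.5895, in another setting. FASN was read in 93.7% of thinned day 15 cells and 97.9% of thinned virgin cells, ACLY in 82.6% of day 15 and 84.4% of virgin cells, and ACACA in 93.1% of day 15 and 85.7% of virgin cells.

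FADS2, the delta-6 desaturase, stood at 347 CPM at day 15, against 494 CPM in virgin, with 177.5 to 493.6 CPM in gestation. Its first gestation library was level with virgin, and its later ones held 242 CPM or less. SCD, the delta-9 desaturase, was the gene only partly back, at 28.8 CPM at day 15, against 49.5 CPM in virgin. Over the whole list the median was 0.17 at day 15, -0.82 in gestation and -0.53 at day 7, all against the same virgin library. ACACB, acetyl-CoA carboxylase 2, was the 1 member higher than virgin at day 15, at 29.0 CPM, against 11.9 CPM in virgin. THRSP, a lipogenic factor outside the gestation rule, stood at 364.5 CPM at day 15, against 444.5 CPM in virgin, with 5.38 CPM at days 140 to 150.

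The other named genes back after lower gestation levels were INHBA, UBE2J1, MTMR1, CDKN1A, ABHD2 and METTL22. INHBA, the activin A subunit, stood at 83.7 CPM at day 15, against 59.2 CPM in virgin, with 3.61 CPM at gestation days 70 to 80. CDKN1A, the cell cycle inhibitor p21, stood at 30.4 CPM at day 15, against 31.9 CPM in virgin, with 8.25 to 30.2 CPM in gestation. Genes back after higher gestation levels included 9 named ones: PCTP, CLEC2D, CTXND1, CAMK2N1, NAT8, TMSB4X, LIPC, HJV and ACADL. LIPC, hepatic lipase, stood at 113 CPM at day 15, against 99.4 CPM in virgin, with 168 to 330.5 CPM in gestation. ACADL, the long-chain acyl-CoA dehydrogenase, stood at 164 CPM at day 15, against 147 CPM in virgin, with 227 to 313 CPM in gestation. HJV, a co-receptor that raises hepcidin, stood at 34.3 CPM at day 15, against 32.5 CPM in virgin, with 55.7 to 86.9 CPM in gestation. PCTP, a phosphatidylcholine carrier, stood at 108 CPM at day 15, against 76.1 CPM in virgin, inside the band but nearer its edge. TMSB4X has close copies elsewhere in the genome, and 25.1% of its virgin reads came from 1 cell.

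Genes still higher than virgin at day 15 after higher levels through gestation included JAML, an adhesion protein best known from leukocytes. It stood at 304 CPM at day 15 (302 to 306), against 20.0 CPM in virgin (19.5 to 20.6), and was read in 99.2% of thinned day 15 cells and 49.5% of thinned virgin cells. Its gestation libraries held 50.1 to 144 CPM, and day 7 held 1.85 CPM, the lowest of the 9. SLC25A47, a mitochondrial carrier specific to liver, stood at 151 CPM at day 15, against 19.4 CPM in virgin, with 154 CPM at days 140 to 150 and 124 CPM at day 7. G0S2 and ALDH1A1, described above, also belong here, G0S2 with 16.5 to 67.4 CPM in gestation and ALDH1A1 with 1629 to 5442 CPM. CYP2A6, HSD17B2, RPL39, TTC9, ACSM2B and ALAS1 were in this class too, as was ABCC3, with a difference of 4.57. So were the marker genes RGS5 and GNLY, GNLY with nearly all of its day 15 reads in 1 cell. RPL39 stood at 1637 CPM at day 15, against 522 CPM in virgin, and is a gene with many processed copies whose reads may be shared. Of all 58 genes still higher, 35 had LOC symbols (60.3%) and 14 were long noncoding RNAs (24.1%).

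Genes still lower at day 15 after lower levels through gestation included PEG3, an imprinted zinc-finger gene. It stood at 0.270 CPM at day 15 (0.214 to 0.335), against 48.9 CPM in virgin (48.0 to 49.7), and was read in 2.83% of thinned day 15 cells (1.56 to 4.70) and 42.4% of thinned virgin cells (37.95 to 46.97). No library other than virgin held more than 4.41 CPM of PEG3. PEG3 therefore passed the 5 CPM filter only through virgin, as did NNAT, given next, so their high virgin levels are partly a matter of selection. NNAT, also imprinted, was likewise highest in virgin, at 7.79 CPM at day 15, against 28.0 CPM in virgin, but its day 15 level was above the other 7 libraries, which held 4.95 CPM or less. UBE2C, a mitotic gene, stood at 0.113 CPM at day 15, against 24.8 CPM in virgin, with 0.0938 to 24.2 CPM in gestation. Its highest gestation value, at days 70 to 80, was about level with virgin. UBE2C passed the filter through these libraries together, so its virgin level is partly a matter of selection too. TMED3, S100A16, GUCA2B, HEY1, ISG15, NOSTRIN, HERC6 and CREM were in this class as well, and so were ERN1, CRELD2, MANF and SLC1A4. GUCA2B, the hormone uroguanylin, stood at 10.8 CPM at day 15, against 96.0 CPM in virgin, with 6.13 to 29.5 CPM in gestation. CREM, a transcription factor of the cAMP response, stood at 18.8 CPM at day 15, against 89.9 CPM in virgin, with 22.8 to 69.4 CPM in gestation.

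A few genes crossed the virgin level. NNMT, which methylates nicotinamide, held 32.3 to 191 CPM in gestation and stood at 3.04 CPM at day 15, against 24.1 CPM in virgin (-2.63). CHIA, an acidic chitinase, held 76.6 to 198 CPM in gestation and stood at 17.8 CPM at day 15, against 61.0 CPM in virgin. TFF2 and CMKLR2 went the same way. In the other direction FUOM, a fucose mutarotase, held 5.58 to 14.6 CPM in gestation and stood at 44.6 CPM at day 15, against 23.4 CPM in virgin. MTHFD1L, a mitochondrial folate enzyme, held 2.91 to 9.18 CPM in gestation and stood at 43.5 CPM at day 15, against 25.3 CPM in virgin, and AK4, a mitochondrial adenylate kinase, stood at 44.4 CPM at day 15, against 27.7 CPM in virgin.

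**Figure D4:**
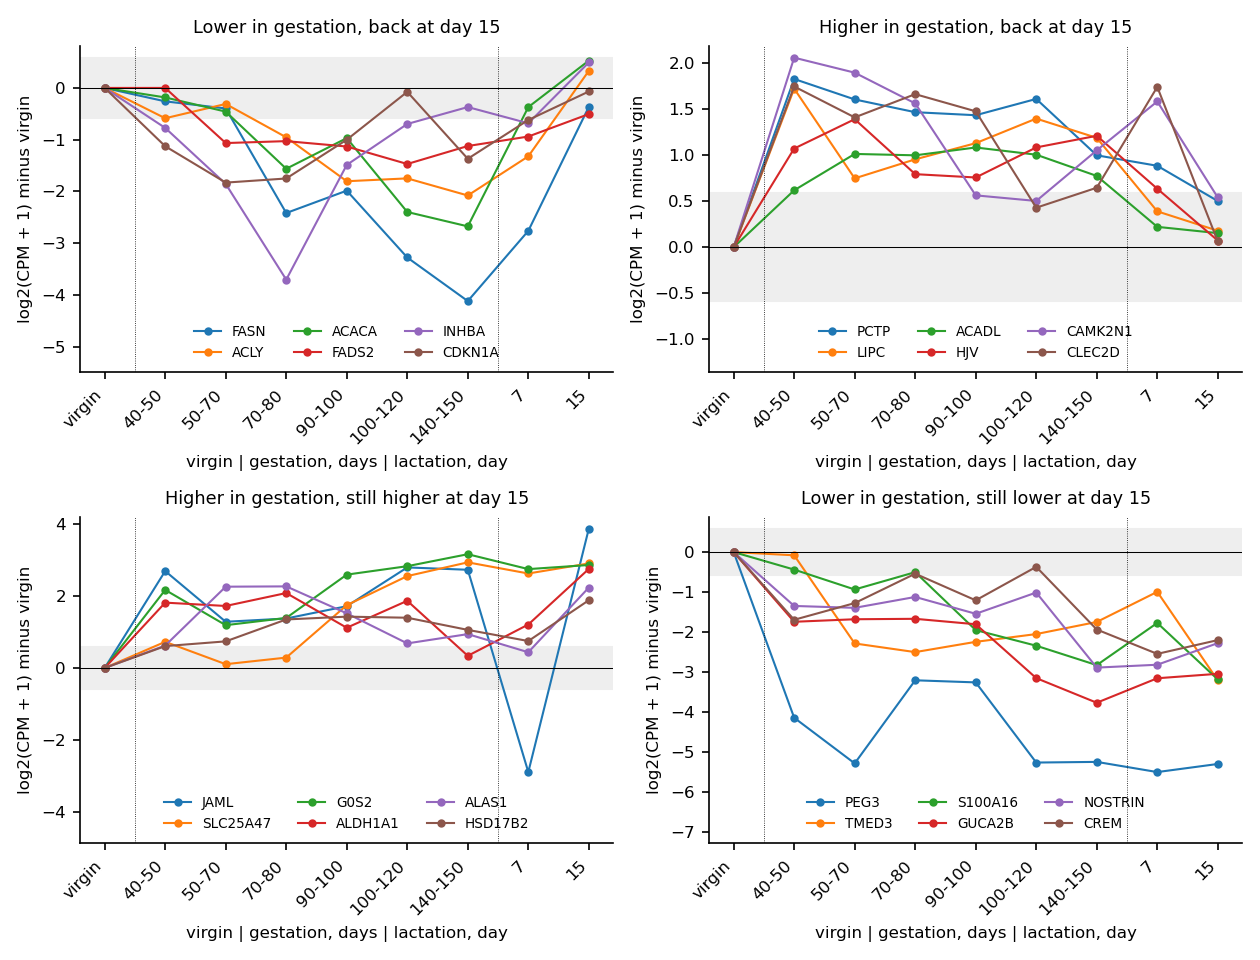
Level of named genes in all 9 libraries as log2(CPM + 1) minus the virgin value, in stage order, with the 1.5-fold band shaded and dotted lines parting virgin, gestation and lactation. FASN, ACLY, ACACA and FADS2 are inside the band at lactation day 15 after lower gestation values (upper left), LIPC, ACADL and HJV after higher ones (upper right), while JAML, SLC25A47 and G0S2 remain above it (lower left) and PEG3 and GUCA2B below it (lower right).

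The lactation day 7 library, set against the same virgin library, differed in part of these genes and not in others. Of the 294 genes higher at day 15, 99 were also at least 2-fold above virgin at day 7 (33.7%), 97 were within 1.5-fold there (33%) and 5 were at least 2-fold below virgin (1.7%). Of the 285 lower genes, 119 were lower at day 7 (41.8%), 90 were within 1.5-fold (31.6%) and 22 were at least 2-fold above (7.72%). Over all genes tested 269 were higher (3.25%) and 367 lower (4.43%) at day 7. Day 15 was the highest of the 9 libraries for 174 of the 294 higher genes (59.2%, against 19.7% of all genes tested). It was the lowest for 155 of the 285 lower genes (54.4%, against 9.02%). These genes were chosen by their day 15 level, which by itself favours such ranks, so the larger shares are no separate evidence.

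Markers of other cell types were low in both pools. Endothelial markers, 11 in the table, summed to 15.3 CPM at day 15 and 8.64 CPM in virgin, stellate and fibroblast markers (12) to 18.9 CPM at day 15 and 9.31 CPM in virgin, and macrophage markers (11) to 7.37 CPM at day 15 and 18.1 CPM in virgin. Lymphocyte markers (12) summed to 19.8 CPM at day 15 and 3.84 CPM in virgin, and GNLY made most of the day 15 sum, with 97.4% of its reads in 1 cell. Neutrophil markers (8) summed to 10.7 CPM at day 15 and 6.27 CPM in virgin, red cell markers (7) to 4.65 CPM at day 15 and 5.06 CPM in virgin, and platelet markers (5) to 1.85 CPM at day 15 and 2.0 CPM in virgin. The genes at 0 were CD68 and GP1BB in both libraries, SPP1 at day 15, and VWF, MPO and HBM in virgin. Bile duct markers (9) summed to 384 CPM at day 15 and 179 CPM in virgin, of which ANXA4 and CLDN4 made nearly all, and KRT19 stood at 0.0999 CPM at day 15 and 0.312 CPM in virgin. For the stellate list the day 15 sum was mostly RGS5, at 15.7 CPM at day 15, against 2.13 CPM in virgin, while COL1A1 stood at 0.0633 CPM at day 15 and 0.294 CPM in virgin. The part of such cells in the differences above was not tested.

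Cell cycle genes were lower in 4, near in 3 and higher in 0 of 7 tested, out of 26 listed. TOP2A, a topoisomerase of dividing cells, stood at 0.346 CPM at day 15, against 20.8 CPM in virgin, and was read in 1.82% of thinned day 15 cells and 13.5% of thinned virgin cells. PCNA, MCM3 and MCM6, which act in DNA replication, were the other lower ones, and CCND1 was near, at 46.5 CPM at day 15, against 46.1 CPM in virgin. MCM3 held 9.68 CPM in virgin and 12.9 CPM at gestation days 70 to 80, and 4.14 CPM or less in every other library. It passed the 5 CPM filter through those higher libraries, so its lower call is partly a matter of selection. Genes that respond quickly to cell isolation went both ways, with 2 higher (ATF3 and MYC), 3 lower (BTG2, JUNB and FOS) and 7 near of 17 tested, and HSPA1A, a heat shock gene, stood at 80.6 CPM at day 15, against 70.5 CPM in virgin.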

How the data were processed

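Per the labels' protocols, liver pieces were treated with collagenase, and single hepatocytes picked by hand went into Smart-seq3xpress libraries. The tools named are featureCounts 2.0.1, HISAT2 2.1.0 and Trimmomatic 0.39, per the submitters' processing notes. Neither the build of the genome nor any collapsing of molecular identifiers is stated in the labels, so the values are treated as reads. The deposited table holds whole-number counts per gene and cell, not normalized by the authors. It has 28861 rows, of which 24 name no gene (0.474% of reads) and were left out of all sums. All 28837 symbols were found in the RefSeq table of ARS-UI_Ramb_v3.0, used for names and gene types only.

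Counts were summed per stage and scaled with TMM factors over the 9 sums (edgeR 4.0.16, R 4.3.3, scaling only). Genes averaging at least 5 CPM were kept, and differences used a pseudocount of 1 CPM. A gene high in 1 library alone can pass this filter through that library, and such genes are in the counts. Examples are PEG3, NNAT and LOC101108414 through virgin, and ABCC3 and MFSD2A through day 15. UBE2C and MCM3 passed it through virgin and gestation days 70 to 80 together. Higher or lower means at least 2-fold, near or back within 1.5-fold. For detection, cells were thinned to a common 155164 reads (the 10th percentile over all cells), leaving out 58 day 15 and 50 virgin cells. CPM have exact Poisson and shares exact Clopper-Pearson 95% intervals, for counting error of reads or cells only. Reads without molecular identifiers are not independent molecules, so the Poisson intervals may be too narrow even for the counting of molecules. Doublets were not called, as cells were picked singly, and 0 cells had counts identical to another's.

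The comparison, the gene lists and the classes were chosen with earlier results of these data known. Named genes are, besides list members, up to 15 per direction of at least 50 CPM with the largest difference that also holds with library size only and with equal weight per cell, and up to 10 per class of return (5 for crossing). LOC symbols were not named by this rule, and some genes it names are not reported here. A planned search of promoters and planned shares of the authors' cell classes were not run, since the tables used here hold neither. The classification was tested on simulated counts with planted 4-fold changes, which checks the code and not calls near the cut-offs. Alternatives were other scalings (DESeq2 1.42.0 size factors, library size, equal weight per cell), thinned cells, leaving out each gene's top cell, other filters, folds, bands and pseudocounts, and leaving out each gestation library. Other software was matplotlib 3.10.9, SciPy 1.17.1, pandas 2.3.3, numpy 2.4.6 and Python 3.11.15.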

Additional observations from a re-analysis of the deposited data

Results flagged for a closer look

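In 5 of the genes named, lactation days 7 and 15 lay on opposite sides of virgin, each by at least 2-fold on the log2(CPM + 1) scale. The difference between the 2 days was not tested, since each is 1 library, and its cause was not tested. JAML stood at 304 CPM at day 15 and 1.85 CPM at day 7, against 20.0 CPM in virgin, a difference between the days of 6.74. ORM1 stood at 115 CPM at day 15 and 9731 CPM at day 7, against 1894 CPM in virgin (-6.39), and IFI6 at 66.4 CPM at day 15 and 1491 CPM at day 7, against 647 CPM in virgin (-4.47). SLC1A2, a glutamate transporter listed as pericentral, stood at 39.3 CPM at day 15 and 0.351 CPM at day 7, against 18.3 CPM in virgin (4.90). C1QB, a macrophage marker, stood at 1.59 CPM at day 15 and 12.2 CPM at day 7, against 5.05 CPM in virgin (-2.35), but 20.8% of its day 15 reads and 34.2% of its virgin reads came from 1 cell each. Its day 15 minus virgin difference of -1.23 was under 2-fold in 3 of the 6 settings run, at -0.55 with each cell weighing the same, -0.39 in thinned cells and -0.94 without the top cell.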

How the results depend on the processing

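No paired analysis was possible because each stage is 1 library. Counts of higher and lower genes were 294 and 285, and became 451 and 599 with no filter, 158 and 142 with a filter of 20 CPM, 901 and 708 at 1.5-fold and 59 and 77 at 4-fold. Genes near virgin were 22569 with no filter and 3296 with the 20 CPM filter. Genes higher in gestation and back (31) became 57 with no filter, 14 at 20 CPM, 20 with a band narrower than 1.5-fold, 102 with days 140 to 150 alone and 206 with a pregnancy change of 1.5-fold. Genes lower in gestation and back (32) became 51 with library size only, 52 with each cell weighing the same, 57 with no filter, 15 at 20 CPM, 12 with the narrower band, 99 with days 140 to 150 alone and 173 with the 1.5-fold change. Genes still higher (58) became 32 at 20 CPM, 95 with days 140 to 150 alone and 97 with the 1.5-fold change, and genes still lower (51) became 121, 16 and 77 with no filter, 20 CPM and days 140 to 150 alone. Leaving out each gestation library in turn gave 33 to 39, 32 to 37, 55 to 67 and 50 to 63 genes for these 4 counts. Of 102 named genes at least 2-fold from virgin, 92 were so in all 6 settings run on them and 0 changed sign. The exceptions were ACACB, SLC25A15, ERN1, MANF, PCNA, HSD3B7, NR5A2, SLC1A2, C1QB and GNLY. Among the named genes back at day 15, some left the 1.5-fold band in at least 1 of these settings. They were ACACA (up to 0.5895), PCTP (up to 0.642), CAMK2N1 (up to 0.7385) and MTMR1 (down to -0.597). With 1 library a side, none of these settings measures the spread between animals, and 3 reads correspond to 0.00999 CPM at day 15 and 0.0109 CPM in virgin.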

Other observations

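The genes with LOC symbols were outside the naming rule, and the choice of the 3 below was made with their values in view. LOC114117992 had 2376 CPM at day 15, against 48.4 CPM in virgin, was read in all thinned day 15 cells and 81.9% of thinned virgin cells, and held 424.5 to 1596 CPM in gestation. LOC101108414 had 0.320 CPM at day 15, against 251 CPM in virgin, and was read in 1.62% of thinned day 15 cells and 55.5% of thinned virgin cells. Its gestation libraries held at most 1.35 CPM and it was listed at 0 at day 7, so it passed the filter only through virgin, as PEG3 did. LOC114117619 had 425 CPM at day 15, against 6541 CPM in virgin, with 12770 CPM at day 7. Such loci may be copies that share reads with one another, and their single values are uncertain.

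Transporters were mostly below virgin, 16 of 22 tested, with 2 higher, 3 lower and 14 near. SLC30A10, a manganese exporter, stood at 142 CPM at day 15, against 403 CPM in virgin, and SLC1A4, a carrier of small neutral amino acids, at 2.02 CPM at day 15, against 14.9 CPM in virgin. SLC7A2, which carries arginine and other cationic amino acids, stood at 36.8 CPM at day 15, against 105 CPM in virgin. Transcription factors of the hepatocyte were near in 13, higher in 2 and lower in 1 of 21, with FOXA2 at 19.8 CPM at day 15, against 8.25 CPM in virgin. Clock genes were near in 12 and past 2-fold in 0 of 15, while over all genes tested 80.6% were near and 6.99% past 2-fold.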
